A study of Mus musculus with 14 samples.

Results

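The genes described here are 36 genes of the integrated stress response and of amino acid transport. They were taken by symbol from the 25017 gene rows of a bulk RNA sequencing count table, and all 36 symbols were present. The symbols name known members of the pathway. The rule itself uses no expression value, but the list was drawn up with earlier results of these data known. CD4+ T cells of donor origin were sorted from BALB/C mice that had received hematopoietic cells from B6 (C57BL/6) donors, which models chronic graft-versus-host disease (cGVHD). Recipients with cGVHD were given T-cell-depleted bone marrow together with splenocytes, and GVHD-free recipients were given the marrow without splenocytes, and so the disease cannot be told apart from the splenocytes given. Tissues were taken 30 days after transplantation, and cells were sorted by PSGL1, a selectin ligand encoded by Selplg. The 14 libraries form 7 groups with 2 in each: PSGL1lo cells from GVHD-free spleen, and PSGL1lo and PSGL1hi cells from the spleen, the liver and the lung in cGVHD. Whether the 2 libraries of a group stem from different animals is not stated in the labels, and the p-values therefore describe only how far these libraries spread, which may be technical.

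The integrated stress response is a pathway in which kinases that sense amino acid shortage, misfolded protein, viral RNA or heme shortage phosphorylate the translation factor eIF2. General translation then slows, while translation of the transcription factor ATF4 rises. ATF4, often with C/EBP partners, switches on genes for amino acid uptake and synthesis and genes that restrain the response. In activated T cells the same transporters and enzymes also serve growth, and their genes respond to mTORC1 and Myc as well.

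ATF4 and C/EBP proteins bind a composite DNA element whose letters were searched as TGATGNAA on both strands of RefSeq promoter windows of 300 bases, 250 before and 50 after the start site (build GRCm38.p6). Of the 36 genes, 31 had an entry, and 9 of these 31 (29.0%) held at least 1 match: Trib3, Chac1, Asns, Pycr1, Slc7a11, Slc1a4, Vldlr, Nupr1 and Got1. Over all promoter windows the share with a match was 3.97%, beside 23.7% of the 38 windows of these genes. Because these genes were listed for their known tie to ATF4, the shares are a description, and a match is neither a binding site nor a cause of any change below. Stretches are shown for 5 genes whose levels are described below, 5′ to 3′ on the gene's own strand, which is the minus strand in each case, with the matches in capitals. For Slc7a11, Got1 and Asns the 120 bases before the start site are shown, and for Slc1a4 and Trib3 30 bases around the match.
Slc7a11 (chr3:50443614-50443733): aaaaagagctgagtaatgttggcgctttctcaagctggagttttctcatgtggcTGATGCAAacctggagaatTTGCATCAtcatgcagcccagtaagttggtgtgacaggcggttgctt
Got1 (chr19:43524606-43524725): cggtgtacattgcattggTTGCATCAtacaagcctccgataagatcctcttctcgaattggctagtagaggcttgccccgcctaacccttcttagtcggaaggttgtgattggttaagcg
Asns (chr6:7693210-7693329): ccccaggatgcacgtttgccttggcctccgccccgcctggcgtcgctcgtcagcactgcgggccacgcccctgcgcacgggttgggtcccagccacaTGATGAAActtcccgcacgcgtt
Slc1a4 (chr11:20332699-20332728): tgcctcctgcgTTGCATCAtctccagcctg
Trib3 (chr2:152344028-152344057): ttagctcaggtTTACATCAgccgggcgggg
The Slc7a11 stretch holds 2 matches, 1 on each strand. Those of Slc7a11, Got1 and Slc1a4 hold the core letters TGATGCAA, read on 1 strand or the other.

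Library totals ran from 13222005 to 33532595 counts. Levels are given as CPM (counts scaled to a common library size, with TMM factors), and the value of 3 counts, used as a floor, was 0.0859 to 0.223 CPM. Of the 36 genes, 33 had enough counts to be tested. Chac1 (0 to 8 counts per library), Cth (0 to 4) and Vldlr (0 to 10) did not. Differences are log2 changes ± standard error, tested in edgeR by its quasi-likelihood method over 13780 genes. Their p-values were adjusted by Benjamini-Hochberg, and a change was called at an adjusted p under 0.05. The summed level of 6 T cell markers was 4200 to 4440 CPM in spleen libraries and 6590 to 7910 CPM in liver and lung libraries. Selplg was higher in PSGL1hi than in PSGL1lo cells of each tissue. Transcripts of other cells were also present. The sum of 10 macrophage markers was 764 and 1150 CPM in lung PSGL1lo, 675 to 837 in lung PSGL1hi, 24.2 to 45.6 in liver, and 114 to 396 in spleen. The sum of 5 hepatocyte markers was 42.3 to 49.9 CPM in liver PSGL1lo and 17 to 21.6 in liver PSGL1hi, and was 0.372 or less elsewhere. In such bulk samples, fewer cells of a type and less RNA per cell cannot be told apart.

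The PSGL1hi cells of the lung held the highest mean level of 12 of the 33 tested genes. Spleen PSGL1hi was highest for 8, liver PSGL1hi for 5, GVHD-free PSGL1lo for 3, spleen PSGL1lo for 3, and liver PSGL1lo and lung PSGL1lo for 1 each. The lowest mean lay in GVHD-free PSGL1lo for 8 genes, in lung PSGL1lo for 7 and in liver PSGL1lo for 6. Such a count was not made over all tested genes, so whether these shares differ from theirs is not known. The genes did not move as a block: within each tissue some were higher in PSGL1lo and some in PSGL1hi cells, as the heat map by library shows. Spleen libraries carry another series of library numbers than liver and lung libraries, so tissue and series cannot be told apart there, and spleen was not tested directly against the other tissues.

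**Figure D1:**
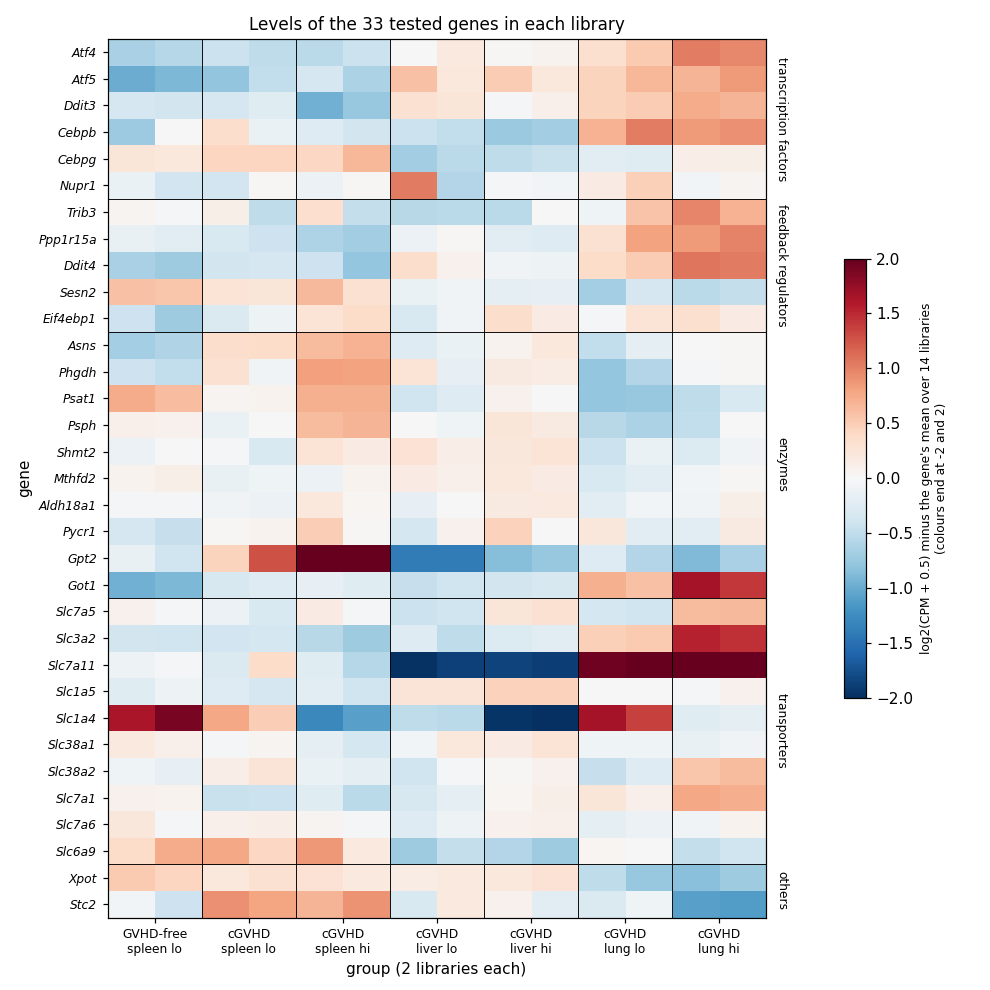
Level of each gene in each of the 14 libraries, as log2(CPM + 0.5) minus its mean over all libraries, with genes in rows grouped by role and libraries in columns by group. The right-hand columns of lung PSGL1hi cells are high for Atf4, Ppp1r15a, Ddit4, Slc3a2, Slc7a5 and Got1, and Slc1a4 is lower in the PSGL1hi than in the PSGL1lo libraries of each tissue.

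Each cGVHD tissue was first used to ask how PSGL1lo cells differ from PSGL1hi cells. In the lung, 2 of the 33 tested genes were higher and 13 lower in PSGL1lo, where 33.0% of all tested genes were called (12.9% higher and 20.1% lower). The median log2 change, PSGL1lo over PSGL1hi, was -0.22 over the 33 genes and -0.03 over all tested genes. The genes lower in lung PSGL1lo were led by the transporters Slc7a5, Slc3a2 and Slc38a2 and the enzyme Got1, each about 2-fold, and they included Atf4 itself. In the spleen, 7 were higher and 6 lower, where 32.5% of all genes were called (15.8% higher and 16.7% lower), and the medians were -0.08 and 0. There the lower genes were led by the enzymes Gpt2, Psph, Phgdh and Psat1. In the liver, 2 were higher and 5 lower, where 20.8% of all genes were called (8.50% higher and 12.3% lower), a share close to that of these genes, and the medians were -0.13 and -0.02. In fits that left out 1 library, the counts of calls moved in each tissue, both for these genes and for all tested genes. Such a fit leaves 1 library in a group. Where a call was lost in it, dependence on that library and the loss of data cannot be told apart, so the log2 change is given.

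Lung was next compared with liver in each fraction. In PSGL1lo cells 12 of the 33 genes were higher and 8 lower in the lung (39.9% of all tested genes called, 19.6% higher and 20.4% lower), with a median of 0.14 beside 0 for all genes. In PSGL1hi cells 14 were higher and 7 lower (38.4% of all genes called, 20.1% higher and 18.3% lower), with a median of 0.15 beside 0. These comparisons share their libraries with the comparisons of PSGL1lo and PSGL1hi within lung and liver. PSGL1lo cells of the spleen were then compared between cGVHD and GVHD-free recipients. There 7 genes were higher and 3 lower in cGVHD, a share near the 27.5% called among all tested genes (14.7% higher and 12.8% lower), with medians of 0.07 and 0.01, and 4 were higher without GVHD-free replicate 1.

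Among the transcription factors, Atf4, the effector of the pathway, varied about 3-fold over the groups. It measured 190 and 201 CPM in GVHD-free PSGL1lo, 222 and 210 in spleen PSGL1lo and 205 and 221 in spleen PSGL1hi. In liver it measured 301 and 341 CPM in PSGL1lo and 305 and 315 in PSGL1hi, and in lung 374 and 432 in PSGL1lo and 605 and 585 in PSGL1hi. Both lung PSGL1hi libraries lay above all others, and the 6 spleen libraries lay below all liver and lung libraries. Atf4 mRNA was lower in lung PSGL1lo than in lung PSGL1hi (-0.56 ± 0.08, adjusted p = 7e-06). No such difference was called in spleen (0.02 ± 0.08, adjusted p = 0.88) or liver (0.05 ± 0.08, adjusted p = 0.7). It was higher in lung than in liver in PSGL1hi (0.94 ± 0.08, adjusted p = 3.7e-09) and in PSGL1lo cells (0.33 ± 0.08, adjusted p = 0.0019). The PSGL1lo call was lost without lung PSGL1lo replicate 2, which gave 0.22 (adjusted p = 0.062). Between cGVHD and GVHD-free spleen the change was 0.14 ± 0.08 and was not called (adjusted p = 0.22). ATF4 protein, which the pathway controls through translation, was not measured.

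Ddit3 encodes CHOP, a factor that ATF4 induces under lasting stress. It measured 17.5 and 17 CPM in GVHD-free PSGL1lo, 17.5 and 18.7 in spleen PSGL1lo and 11.2 and 12.9 in spleen PSGL1hi. The values were 27.5 and 26.2 in liver PSGL1lo, 21.8 and 23.9 in liver PSGL1hi, 30.3 and 31.9 in lung PSGL1lo and 37.4 and 36 in lung PSGL1hi. In the spleen Ddit3 was thus higher in PSGL1lo (0.59 ± 0.12, adjusted p = 0.00053), while in the lung the lower PSGL1lo values were not called (-0.24 ± 0.10, adjusted p = 0.076). The lung level in PSGL1hi cells was above that of liver (0.68 ± 0.10, adjusted p = 1.7e-05). Ddit3 overlaps Mars1 and Mbd6 in the GRCm38 annotation, so its counts are uncertain without a known strand setting.

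The C/EBP genes, which encode partners of ATF4, varied with tissue. Cebpb measured 28.5 and 48.1 CPM in GVHD-free PSGL1lo, 60.8 and 43.3 in spleen PSGL1lo, 39.8 and 36.8 in spleen PSGL1hi, 35.4 and 33.7 in liver PSGL1lo, 28.2 and 29.3 in liver PSGL1hi, 77.6 and 97.2 in lung PSGL1lo and 86.7 and 89.9 in lung PSGL1hi. All 4 lung libraries lay above all others, and Cebpb was higher in lung than in liver in PSGL1lo (1.34 ± 0.16, adjusted p = 1e-06) and in PSGL1hi (1.62 ± 0.16, adjusted p = 8.2e-08). Cebpb is also strongly expressed in macrophages, and macrophage markers were higher in lung than in liver, as given above; their part in the result was not tested. In spleen Cebpb was called higher in PSGL1lo (0.44 ± 0.17, adjusted p = 0.049), but the call was lost without spleen PSGL1lo replicate 1 (0.18), PSGL1hi replicate 1 (0.49) or PSGL1hi replicate 2 (0.38). It was also lost with DESeq2 (adjusted p = 0.16), limma voom (0.071) and a replicate block across tissues (0.053).

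Cebpg, whose product pairs with ATF4, ran in another order. Its values were 76 and 74.5 CPM in GVHD-free PSGL1lo, 86.4 and 86.2 in spleen PSGL1lo, 85.2 and 102 in spleen PSGL1hi, 39.6 and 44.2 in liver PSGL1lo, 45.2 and 47.1 in liver PSGL1hi, 54.8 and 54 in lung PSGL1lo and 70.6 and 69.7 in lung PSGL1hi. All 6 spleen libraries lay above all liver and lung libraries. Cebpg was higher in lung than in liver in both fractions (0.38 in PSGL1lo and 0.60 in PSGL1hi), and lower in lung PSGL1lo than in lung PSGL1hi (-0.37 ± 0.09, adjusted p = 0.0025). Atf5, a related factor that is translated under the same control, ran from 3.84 to 6.36 CPM in spleen and from 9.52 to 15.1 in liver and lung, and was called in none of the 6 comparisons of groups. Nupr1, a stress-induced nuclear protein gene, stood near the floor everywhere (0 to 0.536 CPM) except for 1 liver PSGL1lo library at 1.03 CPM, or 36 counts, whose partner had 0.

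The genes whose products restrain the response, mTORC1 or translation were led by Ppp1r15a and Ddit4. Ppp1r15a encodes GADD34, the phosphatase subunit that takes the phosphate off eIF2 again. It measured 321 and 307 CPM in GVHD-free PSGL1lo, 287 and 265 in spleen PSGL1lo, 231 and 219 in spleen PSGL1hi, 327 and 359 in liver PSGL1lo, 302 and 297 in liver PSGL1hi, 440 and 622 in lung PSGL1lo and 637 and 708 in lung PSGL1hi. The 4 lung libraries were the highest, and lung exceeded liver in PSGL1lo (0.63 ± 0.11, adjusted p = 6.1e-05) and in PSGL1hi (1.17 ± 0.11, adjusted p = 1.5e-08). The sign between fractions differed by tissue: PSGL1lo was higher in spleen (0.29 ± 0.11, adjusted p = 0.041) and lower in lung (-0.34 ± 0.10, adjusted p = 0.015). The spleen call was lost when any 1 of the 4 libraries was left out (0.23 and 0.35 without PSGL1lo replicates 1 and 2, 0.33 and 0.25 without PSGL1hi replicates 1 and 2). The lung call was lost without PSGL1lo replicate 1 (-0.11) or PSGL1hi replicate 2 (-0.26).

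Ddit4 encodes REDD1, an inhibitor of mTORC1. Its values were 102 and 97.3 CPM in GVHD-free PSGL1lo, 124 and 127 in spleen PSGL1lo, 120 and 93.6 in spleen PSGL1hi, 204 and 170 in liver PSGL1lo, 152 and 149 in liver PSGL1hi, 207 and 228 in lung PSGL1lo and 336 and 328 in lung PSGL1hi. Lung PSGL1hi stood above every other library. In liver Ddit4 was higher in PSGL1lo than in PSGL1hi (0.31 ± 0.10, adjusted p = 0.023) and in lung it was lower (-0.61 ± 0.10, adjusted p = 3.2e-05). The liver call was lost without PSGL1lo replicate 1 (0.17), PSGL1hi replicate 1 (0.33) or PSGL1hi replicate 2 (0.29). In PSGL1hi cells the lung level exceeded that of liver (1.14 ± 0.10, adjusted p = 4.9e-09). Its increase in cGVHD spleen (0.33 ± 0.10, adjusted p = 0.018) was lost without GVHD-free replicate 1 (0.37) or 2 (0.29), or without cGVHD replicate 1 (0.34) or 2 (0.31).

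The other genes of this role had low levels or few calls. Trib3, a pseudokinase that binds and restrains ATF4, measured 1.23 and 2.23 CPM in lung PSGL1lo and 3.11 and 2.47 in lung PSGL1hi. Elsewhere it ran from 0.744 to 1.82 CPM. It was called higher in lung than in liver in PSGL1lo (1.20 ± 0.46, adjusted p = 0.044) and PSGL1hi (1.38 ± 0.43, adjusted p = 0.015). The PSGL1lo call was lost without liver PSGL1lo replicate 1 (1.17) or 2 (1.20) or lung PSGL1lo replicate 2 (0.71), and the PSGL1hi call without liver PSGL1hi replicate 1 (1.05) or lung PSGL1hi replicate 1 (1.21). The PSGL1lo call was also lost with DESeq2 and with limma voom (adjusted p = 0.058 in both). Between fractions the values for Trib3 were -0.23 in spleen, -0.50 in liver and -0.69 in lung, none called. Sesn2, a leucine sensor that restrains mTORC1, lay at 14 to 18.7 CPM in spleen, 10.2 to 11.2 in liver and 7.21 to 9.29 in lung. Its lower level in lung than in liver PSGL1lo (-0.41 ± 0.15, adjusted p = 0.039) was lost without liver PSGL1lo replicate 1 (-0.45) or 2 (-0.39) or lung PSGL1lo replicate 1 (-0.23). Eif4ebp1, a repressor of cap-dependent translation, was called in none of the 6 comparisons (2.65 to 6.14 CPM).

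**Figure D2:**
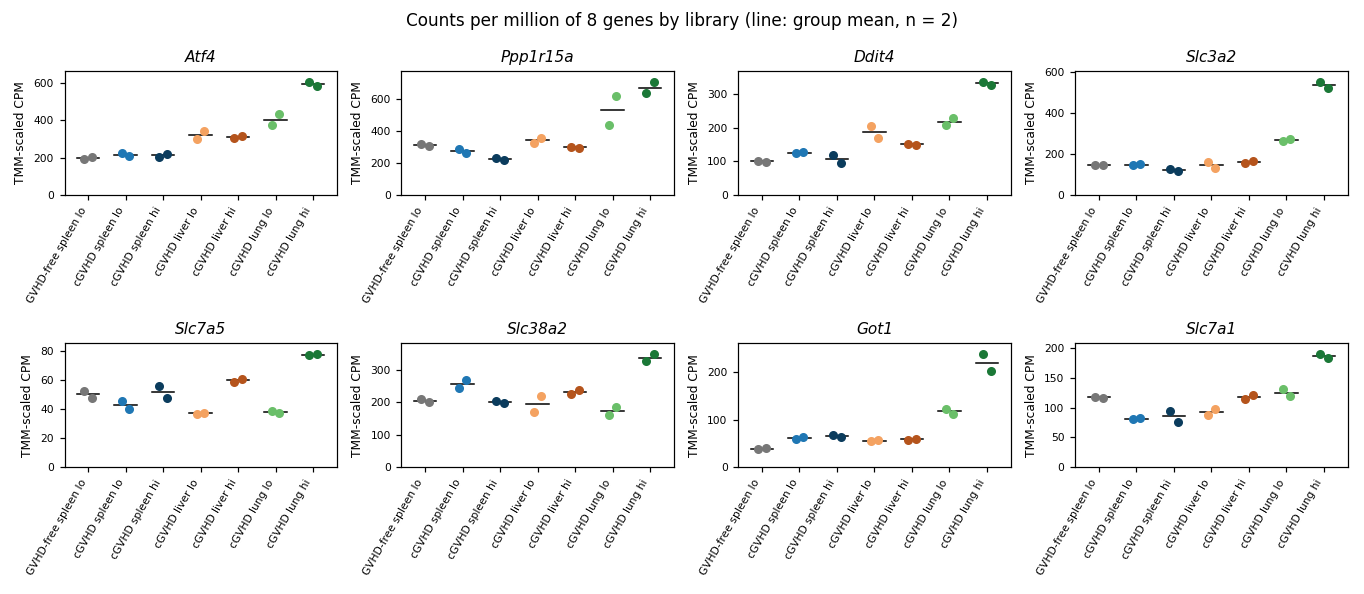
TMM-scaled CPM by library for genes that were lower in lung PSGL1lo than in lung PSGL1hi cells, with 1 point per library and a line at each group's mean (n = 2). For Atf4, Slc3a2, Slc38a2, Got1 and Ddit4 both lung PSGL1hi libraries lie above all 12 others, and Slc3a2 reaches 524 and 553 CPM there beside 116 to 274 CPM elsewhere.

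Among the amino acid transporters, Slc3a2 encodes the heavy chain (CD98) that carries several light chain transporters to the cell surface. It measured 148 and 145 CPM in GVHD-free PSGL1lo, 146 and 149 in spleen PSGL1lo, 129 and 116 in spleen PSGL1hi, 159 and 134 in liver PSGL1lo and 158 and 164 in liver PSGL1hi. In lung it measured 266 and 274 in PSGL1lo and 553 and 524 in PSGL1hi. The 4 lung libraries lay above all 10 others, and both PSGL1hi libraries lay above both PSGL1lo libraries there. Slc3a2 was lower in lung PSGL1lo than in PSGL1hi (-1.0 ± 0.08, adjusted p = 1.9e-09) and higher in lung than in liver in PSGL1lo (0.88 ± 0.08, adjusted p = 1.3e-08) and PSGL1hi (1.74 ± 0.08, adjusted p = 1.8e-13). In liver no difference between the fractions was called (-0.13 ± 0.08, adjusted p = 0.27), although leaving out liver PSGL1lo replicate 1 gave a call (-0.26, adjusted p = 0.027). In spleen PSGL1lo was higher (0.27 ± 0.08, adjusted p = 0.012), a call lost without PSGL1lo replicate 2 (0.26) or PSGL1hi replicate 2 (0.20). In spleen PSGL1lo cells, no change was called between cGVHD and GVHD-free groups (0.01 ± 0.08, adjusted p = 0.96).

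The light chains of that complex ran differently from Slc3a2. Slc7a5, the LAT1 light chain for leucine and other large neutral amino acids, measured 52.8 and 48 CPM in GVHD-free PSGL1lo, 45.5 and 40 in spleen PSGL1lo, 55.7 and 48 in spleen PSGL1hi, 36.8 and 37.3 in liver PSGL1lo, 58.8 and 61 in liver PSGL1hi, 38.8 and 37.5 in lung PSGL1lo and 77.4 and 77.8 in lung PSGL1hi. It was lower in PSGL1lo in lung (-1.02 ± 0.09, adjusted p = 1.5e-08), liver (-0.69 ± 0.09, adjusted p = 8.9e-06) and spleen (-0.28 ± 0.09, adjusted p = 0.027), and within each tissue the libraries of the fractions did not overlap. The spleen call was lost without PSGL1lo replicate 2 (-0.19) or PSGL1hi replicate 1 (-0.17). Lung exceeded liver in PSGL1hi (0.37 ± 0.09, adjusted p = 0.0021), while no call was made in PSGL1lo (0.04 ± 0.09, adjusted p = 0.76). Its lower level in cGVHD spleen was not called (-0.24 ± 0.10, adjusted p = 0.069), but became a call without spleen PSGL1lo replicate 1 (-0.34, adjusted p = 0.048). Slc7a6, a light chain that exchanges cationic for neutral amino acids, ran from 48.8 to 68.5 CPM. It was called only in liver, lower in PSGL1lo (-0.28 ± 0.09, adjusted p = 0.035), and that call was lost without PSGL1lo replicate 1 (-0.21) or PSGL1hi replicate 1 (-0.29) or 2 (-0.28).

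Slc7a11, the cystine and glutamate exchanger light chain xCT, was close to absent in liver and present in lung. It measured 0 and 0.0421 CPM in liver PSGL1lo and 0.0449 and 0.0362 in liver PSGL1hi, against 7.08 and 10.8 in lung PSGL1lo and 7.35 and 7.21 in lung PSGL1hi. In spleen it ran from 0.821 to 2.03 CPM over the 6 libraries. All 4 liver libraries were under their floor, with 1 count in the 2 PSGL1lo libraries and 2 counts in the 2 PSGL1hi libraries, beside 408 and 354 counts in lung. Counts were also pooled over the 2 libraries of each group and scaled by their summed sizes. The lung to liver ratio of these was 521 in PSGL1lo (95% exact interval 92.9 to 20600) and 181 in PSGL1hi (49.8 to 1500). The intervals cover counting error only. The difference was called in PSGL1lo (adjusted p = 9.8e-11) and PSGL1hi (adjusted p = 4e-10). Slc7a11 is also expressed by macrophages. Macrophage markers were 675 to 1150 CPM in lung and 24.2 to 45.6 in liver. In GVHD-free spleen libraries they were at 114 to 116 CPM and Slc7a11 at 1.34 to 1.43. In spleen PSGL1hi libraries they were at 373 and 396 CPM and Slc7a11 at 0.821 to 1.17. In spleen PSGL1lo libraries, macrophage markers were at 174 to 186 and Slc7a11 at 1.12 to 2.03. The part of macrophage RNA in the lung value was not tested.

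Slc1a4, the ASCT1 carrier of alanine, serine, cysteine and threonine, was higher in the PSGL1lo cells of every cGVHD tissue. It measured 14.3 and 17.3 CPM in GVHD-free PSGL1lo, 7.67 and 6.21 in spleen PSGL1lo, 1.45 and 1.73 in spleen PSGL1hi, 2.83 and 2.78 in liver PSGL1lo, 0.719 and 0.652 in liver PSGL1hi, 14.5 and 11.8 in lung PSGL1lo and 3.54 and 3.72 in lung PSGL1hi. In each cGVHD tissue both PSGL1lo libraries lay above both PSGL1hi libraries. The changes were 2.12 ± 0.23 in spleen, 2.03 ± 0.27 in liver and 1.86 ± 0.19 in lung, about 4-fold each, with adjusted p of 4.6e-07, 1.1e-05 and 1.5e-07. Slc1a4 was also higher in lung than in liver in PSGL1lo (2.23 ± 0.20, adjusted p = 1.1e-08) and PSGL1hi (2.40 ± 0.27, adjusted p = 3.4e-07), and lower in cGVHD than in GVHD-free spleen PSGL1lo (-1.19 ± 0.19, adjusted p = 5.8e-05). No library left out removed any of these calls. Slc1a5, the related glutamine carrier ASCT2, did not share this pattern: it ran from 127 to 231 CPM, was called in neither direction between fractions, and was lower in lung than in liver in PSGL1lo (-0.25) and PSGL1hi (-0.43).

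**Figure D3:**
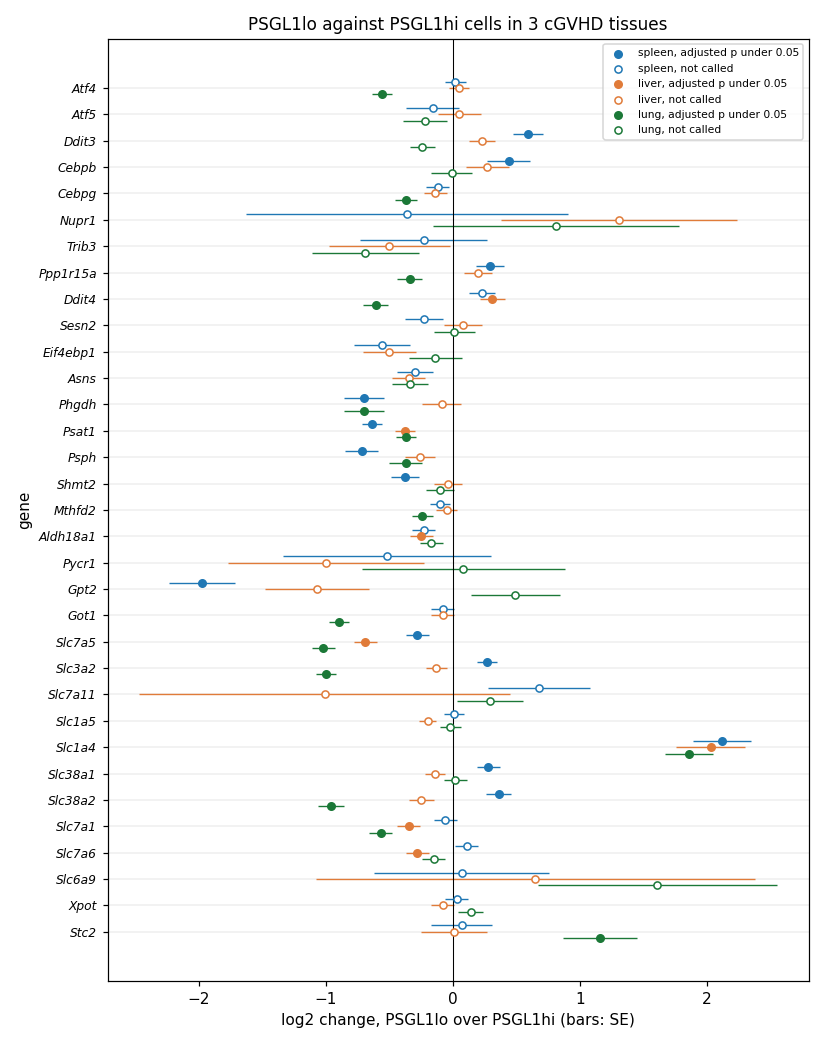
Log2 change of each tested gene, PSGL1lo over PSGL1hi, in cGVHD spleen, liver and lung, with bars of 1 SE and filled points where the adjusted p was under 0.05. Slc1a4 lies at 2.12, 2.03 and 1.86, while Slc3a2 lies at 0.27 in spleen, -0.13 in liver and -1.0 in lung.

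Slc38a2, the sodium-coupled neutral amino acid carrier SNAT2, is induced by amino acid shortage. Its values were 210 and 199 CPM in GVHD-free PSGL1lo, 244 and 267 in spleen PSGL1lo, 203 and 196 in spleen PSGL1hi, 169 and 220 in liver PSGL1lo, 226 and 236 in liver PSGL1hi, 161 and 186 in lung PSGL1lo and 326 and 347 in lung PSGL1hi. Lung held the highest pair, in PSGL1hi, and the lowest library, in PSGL1lo. Slc38a2 was lower in PSGL1lo in lung (-0.96 ± 0.10, adjusted p = 9.1e-08) and higher in PSGL1lo in spleen (0.36 ± 0.10, adjusted p = 0.0066). It was higher in lung than in liver PSGL1hi (0.54 ± 0.10, adjusted p = 0.00011) and in cGVHD than in GVHD-free spleen (0.32 ± 0.10, adjusted p = 0.016). The spleen call between fractions was lost without PSGL1lo replicate 2 (0.29) or PSGL1hi replicate 2 (0.33). The disease call was lost without GVHD-free replicate 1 (0.36) or 2 (0.29) or cGVHD replicate 2 (0.26).

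Slc7a1, the main carrier of arginine and lysine (CAT1), measured 118 and 117 CPM in GVHD-free PSGL1lo, 81 and 82.2 in spleen PSGL1lo, 94.1 and 76.5 in spleen PSGL1hi, 88.3 and 97.1 in liver PSGL1lo, 114 and 121 in liver PSGL1hi, 132 and 119 in lung PSGL1lo and 190 and 183 in lung PSGL1hi. It was again highest in lung PSGL1hi, and lower in PSGL1lo in lung (-0.57 ± 0.09, adjusted p = 2.2e-05) and liver (-0.35 ± 0.09, adjusted p = 0.0065). The liver call was lost without PSGL1lo replicate 1 (-0.29) or PSGL1hi replicate 2 (-0.31). Lung exceeded liver in PSGL1lo (0.44 ± 0.09, adjusted p = 0.00044) and PSGL1hi (0.66 ± 0.09, adjusted p = 3.3e-06), and cGVHD spleen PSGL1lo lay below GVHD-free spleen (-0.53 ± 0.09, adjusted p = 0.00013). Slc38a1, the related carrier SNAT1, ran from 174 to 269 CPM. It was called higher in PSGL1lo in spleen (0.28 ± 0.09, adjusted p = 0.016), which was lost without PSGL1lo replicate 2 (0.24) or PSGL1hi replicate 2 (0.19). It was lower in lung than in liver PSGL1hi (-0.33 ± 0.09, adjusted p = 0.0039), which was lost without liver PSGL1hi replicate 2 (-0.29).

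Slc6a9, the glycine transporter GlyT1, was under 1 CPM in every library, at 0.432 to 0.982 in spleen, 0 to 0.0842 in liver and 0.0864 to 0.339 in lung. It had 15 counts in lung and 2 in liver PSGL1lo cells, a ratio of pooled and scaled counts of 9.57 (95% exact interval 2.23 to 86.2). The call there (adjusted p = 0.031) was lost without liver PSGL1lo replicate 1 (fitted change 1.87) or lung PSGL1lo replicate 1 (2.97) or 2 (3.09). In PSGL1hi cells the ratio was 5.12 (0.573 to 242), which includes 1, and no call was made.

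Among the enzymes, the 3 genes of serine synthesis ran higher in PSGL1hi than in PSGL1lo cells of spleen and lung. Psat1, which performs the transamination step, measured 125 and 115 CPM in GVHD-free PSGL1lo, 77.7 and 78.1 in spleen PSGL1lo, 122 and 122 in spleen PSGL1hi, 56.5 and 62.3 in liver PSGL1lo, 79.4 and 75.3 in liver PSGL1hi, 43.7 and 44.2 in lung PSGL1lo and 52.6 and 60.6 in lung PSGL1hi. Both GVHD-free libraries and both spleen PSGL1hi libraries stood above the other 10. Psat1 was lower in PSGL1lo in spleen (-0.64 ± 0.08, adjusted p = 3.5e-06), liver (-0.38 ± 0.08, adjusted p = 0.0018) and lung (-0.37 ± 0.08, adjusted p = 0.0019), and the lung call was lost without PSGL1hi replicate 2 (-0.26). It was lower in cGVHD than in GVHD-free spleen (-0.62 ± 0.08, adjusted p = 5.1e-06). Lung lay below liver in PSGL1lo (-0.43 ± 0.08, adjusted p = 0.00031) and PSGL1hi (-0.45 ± 0.08, adjusted p = 0.00018).

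Phgdh, the first enzyme of that route, measured 9.38 and 8.88 CPM in GVHD-free PSGL1lo, 15.7 and 12 in spleen PSGL1lo, 22.6 and 22.4 in spleen PSGL1hi, 15.3 and 11.2 in liver PSGL1lo, 14.4 and 14 in liver PSGL1hi, 7.16 and 8.3 in lung PSGL1lo and 12.4 and 12.8 in lung PSGL1hi. It was lower in PSGL1lo in spleen (-0.70 ± 0.16, adjusted p = 0.0014) and lung (-0.70 ± 0.16, adjusted p = 0.0018), and the spleen call was lost without PSGL1lo replicate 2 (-0.52, adjusted p = 0.052). The lung level was below the liver level in PSGL1lo (-0.79 ± 0.16, adjusted p = 0.00049). Unlike Psat1, Phgdh was higher in cGVHD than in GVHD-free spleen (0.60 ± 0.17, adjusted p = 0.012), a call lost without GVHD-free replicate 1 (0.64) or 2 (0.56) or cGVHD replicate 1 (0.40).

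Psph, the phosphatase of the last step, measured 26.2 and 25.8 CPM in GVHD-free PSGL1lo, 22.3 and 24.5 in spleen PSGL1lo, 37.9 and 39.2 in spleen PSGL1hi, 24.2 and 22.9 in liver PSGL1lo, 28.8 and 27.8 in liver PSGL1hi, 16.5 and 15.6 in lung PSGL1lo and 17.2 and 24.2 in lung PSGL1hi. It was lower in PSGL1lo in spleen (-0.72 ± 0.13, adjusted p = 0.00015) and in lung (-0.37 ± 0.13, adjusted p = 0.031). The lung PSGL1hi libraries were unlike each other, and the lung call was lost without PSGL1hi replicate 2 (-0.10), PSGL1lo replicate 1 (-0.41) or PSGL1lo replicate 2 (-0.33). Lung lay below liver in PSGL1lo (-0.56 ± 0.13, adjusted p = 0.0014) and PSGL1hi (-0.45 ± 0.12, adjusted p = 0.0062), the latter lost without lung PSGL1hi replicate 1 (-0.23). Psph overlaps Cct6a, so its counts are uncertain.

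The mitochondrial folate enzymes varied less. Shmt2, which splits serine into glycine and a folate-bound carbon unit, measured 47.6 and 51.5 CPM in GVHD-free PSGL1lo, 50.9 and 41.7 in spleen PSGL1lo, 62.6 and 57.6 in spleen PSGL1hi, 62.8 and 56.3 in liver PSGL1lo, 60.6 and 62.1 in liver PSGL1hi, 38 and 47.1 in lung PSGL1lo and 42.4 and 48.9 in lung PSGL1hi. Lung lay below liver in PSGL1lo (-0.49 ± 0.11, adjusted p = 0.0013) and in PSGL1hi (-0.43 ± 0.11, adjusted p = 0.0039), the latter lost without lung PSGL1hi replicate 1 (-0.33). In spleen Shmt2 was lower in PSGL1lo (-0.38 ± 0.11, adjusted p = 0.013), which was lost without PSGL1lo replicate 2 (-0.24) or PSGL1hi replicate 1 (-0.32). Mthfd2, the next enzyme, ran from 63.0 to 89.8 CPM and was lower in lung than in liver PSGL1lo (-0.39 ± 0.08, adjusted p = 0.00054). Its call between the lung fractions (-0.24 ± 0.08, adjusted p = 0.024) was lost without PSGL1lo replicate 1 (-0.19) or PSGL1hi replicate 2 (-0.20). Of the proline enzymes, Aldh18a1 ran from 84.8 to 115 CPM and was called in liver alone, lower in PSGL1lo (-0.25 ± 0.09, adjusted p = 0.045). That call was lost without PSGL1lo replicate 1 (-0.17) or PSGL1hi replicate 1 (-0.26) or 2 (-0.25), and with DESeq2 (adjusted p = 0.056). Pycr1 did not exceed 0.61 CPM and was not called.

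Gpt2, the mitochondrial alanine aminotransferase, was highest in spleen PSGL1hi cells. It measured 1.71 and 1.36 CPM in GVHD-free PSGL1lo, 2.83 and 5.42 in spleen PSGL1lo, 17.2 and 15.7 in spleen PSGL1hi, 0.429 and 0.421 in liver PSGL1lo, 0.854 and 0.942 in liver PSGL1hi, 1.53 and 1.12 in lung PSGL1lo and 0.821 and 1.06 in lung PSGL1hi. Both spleen PSGL1hi libraries lay far above the other 12. Gpt2 was lower in spleen PSGL1lo than in PSGL1hi (-1.98 ± 0.26, adjusted p = 4.3e-06), and higher in cGVHD than in GVHD-free PSGL1lo (1.43 ± 0.32, adjusted p = 0.0018). The cGVHD libraries differed from each other, and the disease call was lost without cGVHD replicate 2 (0.87). Lung exceeded liver in PSGL1lo (1.62 ± 0.39, adjusted p = 0.0023), at levels near 1 CPM.

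Asns, asparagine synthetase, measured 7.74 and 8.16 CPM in GVHD-free PSGL1lo, 16.4 and 16.6 in spleen PSGL1lo, 19.9 and 20.8 in spleen PSGL1hi, 10.6 and 11.6 in liver PSGL1lo, 13.3 and 14.8 in liver PSGL1hi, 8.9 and 11.2 in lung PSGL1lo and 12.6 and 12.9 in lung PSGL1hi. Its level in cGVHD spleen was about 2-fold that in GVHD-free spleen (1.05 ± 0.15, adjusted p = 1.3e-05). PSGL1lo values were below PSGL1hi values in each cGVHD tissue without overlap, but no tissue gave a call: -0.30 ± 0.14, adjusted p = 0.094 in spleen, -0.35 ± 0.13, adjusted p = 0.076 in liver and -0.34 ± 0.14, adjusted p = 0.065 in lung. The lung value became a call without PSGL1lo replicate 2 (-0.52, adjusted p = 0.024). Asns did not rank with Atf4 over the groups, since its highest libraries were in spleen PSGL1hi and its values in lung and liver were close (-0.14 ± 0.14, adjusted p = 0.46 in PSGL1lo and -0.14 ± 0.14, adjusted p = 0.44 in PSGL1hi).

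**Figure D4:**
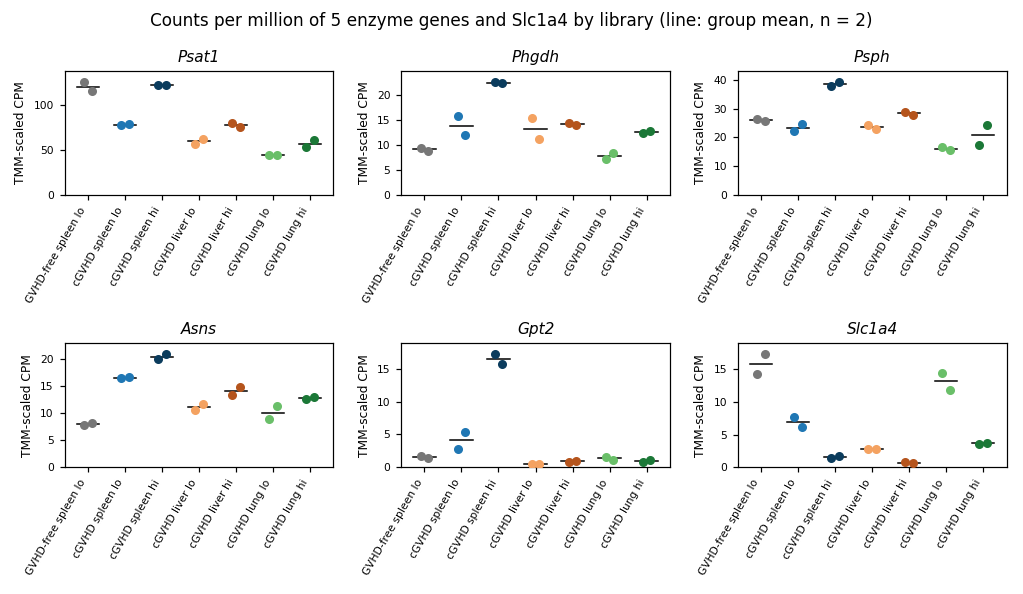
TMM-scaled CPM by library of Psat1, Phgdh, Psph, Asns, Gpt2 and the transporter gene Slc1a4, with 1 point per library and a line at each group's mean (n = 2). Phgdh, Psph and Gpt2 are highest in spleen PSGL1hi, where Gpt2 stands at 15.7 and 17.2 CPM beside 0.421 to 5.42 elsewhere.

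Got1, the cytosolic aspartate aminotransferase, was the enzyme gene with the largest difference between the lung fractions. It measured 38 and 40 CPM in GVHD-free PSGL1lo, 60 and 62.5 in spleen PSGL1lo, 66.6 and 63.3 in spleen PSGL1hi, 54.2 and 56.8 in liver PSGL1lo, 57.9 and 59.6 in liver PSGL1hi, 123 and 112.2 in lung PSGL1lo and 237 and 201 in lung PSGL1hi. The GVHD-free libraries were the lowest and the 4 lung libraries the highest. Got1 was lower in PSGL1lo in lung (-0.90 ± 0.08, adjusted p = 2.1e-08), with -0.08 in spleen and -0.08 in liver, neither called. Lung exceeded liver in PSGL1lo (1.08 ± 0.08, adjusted p = 1.8e-09) and PSGL1hi (1.90 ± 0.09, adjusted p = 1.5e-13), and cGVHD spleen exceeded GVHD-free spleen (0.65 ± 0.09, adjusted p = 1.1e-05).

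The remaining genes were Xpot, which encodes the exporter of tRNA from the nucleus, and Stc2, a secreted glycoprotein induced by stress. Xpot stood at 50.9 to 66.0 CPM in all spleen and liver libraries and at 25.5 to 32.0 in the 4 lung libraries, without overlap. Xpot was lower in lung than in liver in PSGL1lo (-0.81 ± 0.09, adjusted p = 6.4e-07) and PSGL1hi (-1.03 ± 0.10, adjusted p = 2e-08). Stc2 measured 3.17 and 2.36 CPM in GVHD-free PSGL1lo, 6.7 and 6.08 in spleen PSGL1lo, 5.61 and 6.57 in spleen PSGL1hi, 2.58 and 3.87 in liver PSGL1lo, 3.55 and 2.79 in liver PSGL1hi, 2.63 and 3.08 in lung PSGL1lo and 1.3 and 1.25 in lung PSGL1hi. The 4 cGVHD spleen libraries were the highest and the lung PSGL1hi libraries the lowest. Stc2 was higher in cGVHD than in GVHD-free spleen PSGL1lo (1.20 ± 0.27, adjusted p = 0.0019), higher in PSGL1lo in lung (1.16 ± 0.29, adjusted p = 0.0039), and lower in lung than in liver PSGL1hi (-1.30 ± 0.29, adjusted p = 0.0011).

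**Figure D5:**
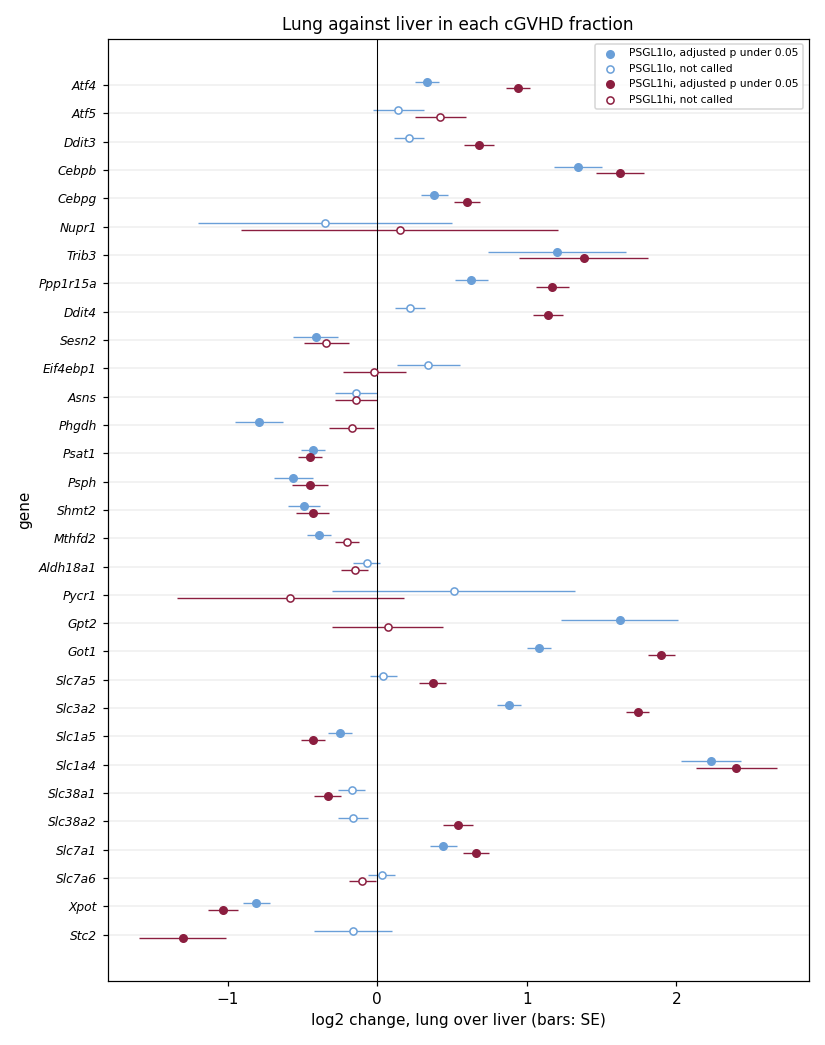
Log2 change, lung over liver, of the tested genes in PSGL1lo and PSGL1hi cells, with bars of 1 SE and filled points where the adjusted p was under 0.05. Slc7a11 and Slc6a9 are not drawn because liver had 1 or 2 counts. Got1, Slc3a2, Cebpb and Slc1a4 lie above 0 and Xpot and Psat1 below 0 in both fractions.

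Whether the difference between PSGL1lo and PSGL1hi cells depended on tissue was tested as a difference of effects. Between lung and liver, 6 of the 33 genes had a lower effect in lung and none a higher one, where 5.97% of all tested genes were called (2.08% higher and 3.89% lower). They were Ddit4 (-0.92 ± 0.14), Slc3a2 (-0.87 ± 0.11), Got1 (-0.82 ± 0.12), Slc38a2 (-0.70 ± 0.14), Atf4 (-0.61 ± 0.11) and Ppp1r15a (-0.54 ± 0.15). Between lung and spleen, 1 gene had a higher effect in lung and 9 a lower one, where 16.6% of all genes were called (5.51% higher and 11.1% lower). The lower ones were led by Slc38a2 (-1.31 ± 0.14), Slc3a2 (-1.27 ± 0.11), Ddit4 (-0.84 ± 0.14) and Ddit3 (-0.83 ± 0.15), and the higher one was Gpt2 (2.47 ± 0.44). Between liver and spleen, 3 genes were called, all lower in liver, where 6.84% of all genes were called (2.64% higher and 4.20% lower): Slc38a2 (-0.61 ± 0.14), Slc38a1 (-0.42 ± 0.12) and Slc3a2 (-0.40 ± 0.11). Without spleen PSGL1lo replicate 2 none of these 3 was called. The Ppp1r15a call between lung and liver was lost without lung PSGL1lo replicate 1 (-0.31) and in 4 other fits that left out a library (-0.46 to -0.55). These tests share libraries with each other, so they are not independent.

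Across the 3 tissues, Psat1 and Slc7a5 were called lower in PSGL1lo in each (2 of 33 genes or 6.06%, beside 6.25% of all tested genes). Slc1a4 was called higher in each (1 of 33 or 3.03%, beside 3.77%). Both shares are near those of all tested genes. Calls of opposite direction between tissues were made for Ddit4, Slc3a2, Slc38a2 and Ppp1r15a. These are 4 of 33 genes (12.1%), beside 2.55% of all tested genes. In each of the 4 the lower call was in lung. The higher calls of Slc3a2, Slc38a2 and Ppp1r15a in spleen were all lost without PSGL1hi replicate 2 (log2 changes of 0.20, 0.33 and 0.25) and again without PSGL1lo replicate 2 (0.26, 0.29 and 0.35), and that of Ppp1r15a also without either replicate 1 (0.23 and 0.33). The liver call of Ddit4 was lost without PSGL1lo replicate 1 (0.17) or PSGL1hi replicate 1 (0.33) or 2 (0.29). No call in any tissue was made for 11 of the 33 genes, and for 6627 of all 13780 tested genes.

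Other measures moved with these results. The summed level of 18 proliferation genes was 5480 to 5740 CPM in spleen PSGL1hi and 2730 to 2800 in spleen PSGL1lo, 2570 to 2670 and 1780 to 1820 in liver, and 2070 to 2480 and 1040 to 1110 in lung. Of these 18, all were called lower in PSGL1lo in spleen and 17 each in liver and lung. Of all tested genes, 16.7%, 12.3% and 20.1% were called lower in spleen, liver and lung. All 18 were also lower in lung than in liver PSGL1lo (20.4% of all tested genes lower). In PSGL1hi cells 9 were lower in lung and none higher (18.3% lower). For lung minus liver 13 had a lower effect and none a higher one (3.89% lower). The summed level of 14 immediate early and heat shock genes was 10300 to 12300 CPM in lung PSGL1lo and 13700 to 14200 in lung PSGL1hi, against 4310 to 5890 in all other libraries. Among them 10 were lower in lung PSGL1lo than in PSGL1hi and none higher (20.1% of all tested genes lower), while in spleen 7 were higher and 1 lower, and in liver 6 were higher and 2 lower (15.8% and 8.50% of all genes higher). For lung minus liver 9 of the 14 had a lower effect and 1 a higher one (3.89% of all genes lower). Between lung and liver PSGL1hi 13 were higher in lung and none lower (20.1% of all genes higher). CD8 T cell markers summed to 77.5 and 77.6 CPM in spleen PSGL1hi and 11.8 to 12.3 in PSGL1lo, 141 to 142 and 28 to 31.5 in liver, and 28.5 to 30.6 and 12.1 to 12.4 in lung. In spleen, 7 B and plasma cell markers summed to 26.9 to 27.2 CPM in GVHD-free PSGL1lo, 6.03 to 7.38 in cGVHD PSGL1lo and 44.9 to 52.5 in cGVHD PSGL1hi. Of the 6 tested markers, 1 was called higher and 2 lower in cGVHD spleen PSGL1lo than in PSGL1hi (15.8% and 16.7% of all tested genes). Over the 3 spleen groups, in the order above, Psat1 had means of 120, 77.9 and 122 CPM. Psph (26, 23.4 and 38.5 CPM) and Shmt2 (49.6, 46.3 and 60.1) were also lowest in cGVHD PSGL1lo. Phgdh (9.13, 13.9 and 22.5 CPM), Asns (7.95, 16.5 and 20.4) and Gpt2 (1.53, 4.13 and 16.5) were lowest in GVHD-free PSGL1lo. The sum of 3 natural killer cell markers was 65 to 68.2, 71 (Ncr1 at 0) and 132 to 138 CPM in the same groups. Lung epithelium markers summed to 12.1 and 95.3 CPM in lung PSGL1lo, 44.2 to 52 in lung PSGL1hi and 8.69 to 13.1 elsewhere. Sftpc, Sftpa1 and Sftpb were at 0 in every spleen and liver group, so the sums there came from Epcam and Scgb1a1. In neither lung group was any of the 5 at 0 in both libraries. All 5 hepatocyte markers were at 0 in lung PSGL1lo. The part of these in the results on Atf4, Slc3a2, the spleen enzymes and the other genes was not tested.

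Upstream of ATF4, 15 genes of the eIF2 kinases, eIF2 and its exchange factor were tested. In lung 1 was higher and 5 lower in PSGL1lo (median -0.15), or 40.0% called beside 33.0% of all tested genes. Eif2ak3, the PERK kinase that senses misfolded protein, was lower (-0.82 ± 0.08, adjusted p = 1.2e-07), and Eif2ak4, the GCN2 kinase that senses amino acid shortage, was higher (0.45 ± 0.11, adjusted p = 0.0025). In spleen 2 were higher and 4 lower (40.0% beside 32.5%), and in liver 1 was higher and 2 lower (20.0% beside 20.8%), a share near the background in liver. Eif2ak4 was higher in PSGL1lo in both (0.38 in spleen and 0.49 in liver). Eif2ak2, the PKR kinase that senses viral RNA and is an interferon target, was lower in lung than in liver in PSGL1lo (-1.69 ± 0.12, adjusted p = 2.4e-10) and PSGL1hi (-1.87 ± 0.12, adjusted p = 3.6e-11). In these comparisons 3 of the 15 were higher and 6 lower in PSGL1lo cells (39.9% of all tested genes called), and 5 higher and 2 lower in PSGL1hi cells (38.4%).

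The parallel branches of the unfolded protein response, controlled by ATF6 and XBP1, were read from 19 genes. In lung 12 of these were lower and none higher in PSGL1lo (median -0.33), in spleen 9 were lower and 2 higher (-0.17), and in liver 8 were lower and none higher (-0.13). Of all tested genes 20.1%, 16.7% and 12.3% were lower in these tissues. Ern1, the IRE1 sensor, was lower in lung PSGL1lo (-1.01 ± 0.12, adjusted p = 5.1e-07), as was Herpud1, a gene of protein disposal from the endoplasmic reticulum (-0.76 ± 0.08, adjusted p = 1.4e-07). Ern1 was also higher in cGVHD than in GVHD-free spleen (1.27 ± 0.13, adjusted p = 1.3e-07). Of 20 cytosolic tRNA synthetase genes, many of which ATF4 controls, 12 were lower in spleen PSGL1lo, 3 in liver and 6 in lung, and none was higher in any of these. Of all tested genes 32.5%, 20.8% and 33.0% were called in these tissues, beside 15.0% of the list in liver and 30.0% in lung. Gars was lower in all 3 (-0.44 in spleen, -0.31 in liver and -0.52 in lung), and so was Kars (-0.47, -0.28 and -0.41). Of 14 other folate enzyme genes, 9 were lower and 1 higher in spleen PSGL1lo (median -0.48), 8 were lower in liver (-0.24) and 6 in lung (-0.31), with none higher in liver or lung. The shares called were 71.4%, 57.1% and 42.9%, beside 32.5%, 20.8% and 33.0% of all tested genes. This list shares Tyms with the proliferation genes.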

How the data were processed

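Gene counts were analysed as deposited. The authors made these whole-number counts with TopHat2 2.0.8 and HTSeq on mm9, per the submitters' processing notes. The sources used here name no annotation, strand setting or read filter. Genes that overlap another gene in the GRCm38 annotation, among them Atf5, Ddit3, Psph, Shmt2, Cebpg, Ppp1r15a and Slc6a9, have uncertain counts. Coordinates and promoter sequences come from RefSeq (GRCm38.p6), not from mm9.

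The 14 libraries (13222005 to 33532595 counts) were fitted together in edgeR 4.0.16 (R 4.3.3), with 1 mean per group, TMM scaling and edgeR's default filter, which kept 13780 of 25017 genes. The design left 7 residual degrees of freedom. The quasi-likelihood test also uses information on spread shared across all tested genes, and its p-values rest on both. The common biological coefficient of variation was 7.35%. Each of 9 contrasts was adjusted by Benjamini-Hochberg over all tested genes at 0.05. Replicates of a group differed by more than counting noise (chi-square per degree of freedom 2.97 to 18.6), so no library was counted as deposited again.

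The genes named with values were the called members with the largest changes (up to 5 in each direction per comparison), those called in 3 or more of the 6 comparisons of groups, which have every library's value, and Atf4, Ddit3, Trib3, Asns, Slc7a5 and Slc3a2. The members and the other lists were chosen with earlier results of these data known. Gcn1l1 and Trac, on those lists, were not analysed here. Alternatives were DESeq2 1.42.0, its size factors in edgeR, limma 3.58.1 voom, no filter, only the groups compared, a replicate block, and leaving out each library.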

Additional observations from a re-analysis of the deposited data

Results flagged for a closer look

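The following differences between tissues in the effect of fraction (log2 PSGL1lo over PSGL1hi, 1 tissue minus another) passed edgeR's quasi-likelihood test of the difference itself, after Benjamini-Hochberg adjustment. For lung minus liver they were Ddit4 (-0.92 ± 0.14, adjusted p = 0.00014), Slc3a2 (-0.87 ± 0.11, adjusted p = 2.9e-05), Got1 (-0.82 ± 0.12, adjusted p = 0.00013), Slc38a2 (-0.70 ± 0.14, adjusted p = 0.002), Atf4 (-0.61 ± 0.11, adjusted p = 0.0011) and Ppp1r15a (-0.54 ± 0.15, adjusted p = 0.032). The Ppp1r15a call was lost without liver PSGL1lo replicate 2 (-0.47), liver PSGL1hi replicate 1 (-0.55) or 2 (-0.53), lung PSGL1lo replicate 1 (-0.31) or lung PSGL1hi replicate 2 (-0.46).

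For lung minus spleen the transporters were Slc38a2 (-1.31 ± 0.14, adjusted p = 9.9e-07), Slc3a2 (-1.27 ± 0.11, adjusted p = 1.6e-07), Slc7a5 (-0.75 ± 0.13, adjusted p = 0.00042) and Slc7a1 (-0.51 ± 0.13, adjusted p = 0.0071). The factors and the genes that restrain the response or mTORC1 were Ddit4 (-0.84 ± 0.14, adjusted p = 0.00018), Ddit3 (-0.83 ± 0.15, adjusted p = 0.00076), Ppp1r15a (-0.63 ± 0.15, adjusted p = 0.0051) and Atf4 (-0.58 ± 0.11, adjusted p = 9e-04). The enzymes were Got1 (-0.82 ± 0.12, adjusted p = 6.1e-05) and Gpt2 (2.47 ± 0.44, adjusted p = 0.00046), and Gpt2 alone was positive. The Slc7a1 call was lost without spleen PSGL1hi replicate 2 (-0.37).

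For liver minus spleen they were Slc38a2 (-0.61 ± 0.14, adjusted p = 0.0098), Slc38a1 (-0.42 ± 0.12, adjusted p = 0.039) and Slc3a2 (-0.40 ± 0.11, adjusted p = 0.033). The Slc38a2 call was lost without spleen PSGL1lo replicate 2 (-0.54) or liver PSGL1hi replicate 2 (-0.59). The Slc38a1 call was lost in 6 of the 8 fits that left out a library (-0.29 to -0.48), and it held without spleen PSGL1hi replicate 1 and without liver PSGL1lo replicate 2. The Slc3a2 call was also lost in 6 of 8 (-0.29 to -0.43), and it held without spleen PSGL1hi replicate 1 and without liver PSGL1lo replicate 1.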

How the results depend on the processing

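Over 9 contrasts, 105 calls of the 33 tested genes were recomputed under the alternative settings. Many of the 1231 recomputed values came from the same fit, and so they are not independent. Of these, 1126 kept direction and call and 105 kept direction only, and no called gene reversed. Fitted on only the groups compared, genes called lower were 7 rather than 3 in the disease comparison, 3 rather than 5 in liver and 1 rather than 3 for liver minus spleen. Genes called higher for lung minus spleen were 2 rather than 1 in that fit and without a filter, and limma voom called 8 lower in liver. Over all tested genes, that fit called 1123 rather than 1695 lower in liver, 340 rather than 579 for liver minus spleen and 1857 rather than 2809 for lung against liver PSGL1lo. It also gave 0.00 rather than 0.01 for Slc3a2 in the disease comparison. It uses fewer samples, and the cause was not tested further.

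Leaving out 1 library moved the counts of the tested genes of the pathway called higher and lower as follows. They were 4 to 5 and 3 to 4 in the disease comparison, 2 to 6 and 3 to 7 in spleen, 1 to 3 and 2 to 7 in liver, and 2 and 9 to 13 in lung. For lung minus liver they were 0 to 1 and 5 to 7, for lung minus spleen 1 to 2 and 9, and for liver minus spleen 0 to 1 and 0 to 5. The lowest counts came without spleen PSGL1hi replicate 2 (2 higher in spleen), spleen PSGL1lo replicate 2 (3 lower in spleen, 0 lower for liver minus spleen), liver PSGL1hi replicate 2 (2 lower in liver), liver PSGL1lo replicate 1 (1 higher in liver) and GVHD-free replicate 1 (4 higher in disease). Over all genes, 1442 to 1888 were higher in spleen, and in liver 577 to 1390 were higher and 1003 to 2299 lower. For lung minus liver 158 to 604 were higher and 318 to 733 lower, for lung minus spleen 482 to 671 were higher, and for liver minus spleen 130 to 928 were higher and 213 to 1587 lower.

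Signs that turned were all of changes not called. Leaving out 1 library, Slc3a2 ran from -0.01 to 0.03 and Trib3 from -0.78 to 0.14 in the disease comparison. In spleen Atf4 ran from -0.03 to 0.07 and Trib3 from -0.74 to 0.45, in liver Atf4 ran from -0.04 to 0.13, and Asns ran from -0.32 to 0.02 for lung against liver PSGL1lo.

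Same-numbered replicates deviated together with correlations of -0.156 to 0.175, so the numbers were not taken to pair libraries. With the replicate number as a block within each tissue all 105 calls held, and with 1 number across tissues 103 did. Crossing the numbers of liver PSGL1lo, an alternative chosen after seeing the data, gave 12 genes higher and 8 lower for lung against liver PSGL1lo. At these depths, Chac1, Cth and Vldlr had too few counts to be tested. Nupr1 (0 to 36 counts per library) and Pycr1 (1 to 13) were tested and called in none of the 9 contrasts. At such low counts, the lack of a call does not show equal levels.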

Other observations

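The network around Myc, which also drives amino acid uptake in T cells, had called genes in each tissue. Mxd1, an antagonist of Myc, was lower in lung PSGL1lo than in PSGL1hi (-1.68 ± 0.09, adjusted p = 7.2e-12), and so was Mxi1 (-1.38 ± 0.08, adjusted p = 3.1e-11). Myc itself measured 101 ± 5.3 CPM (SD, n = 2) in lung PSGL1hi, 49.7 ± 7.8 in lung PSGL1lo, 95.3 ± 1.8 in liver PSGL1hi and 56.9 ± 3.1 in liver PSGL1lo, and 13.8 to 19 as group means in spleen. Myc was called lower in PSGL1lo in lung, in liver (-0.74 ± 0.10, adjusted p = 1.9e-05) and in spleen (-0.45 ± 0.13, adjusted p = 0.013). Of the 6 tested genes of the list, 2 were higher and 4 lower in PSGL1lo in lung, 3 higher and 3 lower in spleen, and 1 higher and 2 lower in liver, where 33.0%, 32.5% and 20.8% of all tested genes were called.

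Among 24 genes of mTORC1 and amino acid sensing, 2 were higher and 8 lower in lung PSGL1lo, 9 higher and 4 lower in spleen, and 3 higher and 3 lower in liver. The shares called were 41.7%, 54.2% and 25.0%, beside 33.0%, 32.5% and 20.8% of all tested genes, so the liver share lies near the background. Deptor, an mTOR inhibitor, was lower in PSGL1lo in spleen, liver and lung (-1.32, -1.85 and -1.72), and Sesn3, a relative of Sesn2, was higher in each (0.84, 0.49 and 0.52). Of 19 other amino acid transporters, 5 were higher and 4 lower in lung than in liver PSGL1lo, a share (47.4%) near that of all genes (39.9%). The arginine carrier Slc7a2 measured 40.3 ± 9.9 CPM (SD, n = 2) in lung PSGL1lo and 33.8 ± 7.7 in lung PSGL1hi, with group means of 0.0211 and 0.212 in liver, 12.1 in spleen PSGL1hi, 5.11 in spleen PSGL1lo and 0.254 in GVHD-free spleen. Slc7a2 is also expressed by macrophages. Macrophage markers summed to 764 and 1150 CPM in lung PSGL1lo, 675 to 837 in lung PSGL1hi, 373 and 396 in spleen PSGL1hi, 174 to 186 in spleen PSGL1lo, 114 to 116 in GVHD-free spleen and 24.2 to 45.6 in liver. The part of macrophage RNA in the Slc7a2 values was not tested.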
